A study of Sus scrofa with 6 samples.

Results

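Lysosomes are acidic organelles that break down what a cell engulfs and what it recycles. Soluble hydrolases do the digestion, a proton pump in the membrane keeps the lumen acidic, and carrier proteins pass the products on. In a healing artery the pathway is best known from macrophages, which clear debris and foreign material, but smooth muscle cells and fibroblasts hold lysosomes as well. Described here are 5 genes of this pathway: NEU1 (the lysosomal sialidase, which removes terminal sialic acids from glycoproteins and glycolipids), GALNS (a sulfatase that degrades keratan sulfate and chondroitin sulfate), NPC2 (a soluble cholesterol carrier that hands its cargo to NPC1), ATP6V1A (the catalytic A subunit of the proton pump, the V-ATPase) and IFI30 (GILT, an interferon-inducible thiol reductase that unfolds engulfed proteins). All non-control probes designed on a pig RefSeq transcript of these 5 genes were taken, which gave 10 of 43603 probes. They are 5 of the 2389 named genes on the array. NEU1 and ATP6V1A had 1 probe each, NPC2 and IFI30 had 2 each and GALNS had 4.

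RNA from the puncture site of pig (Sus scrofa) femoral arteries, labelled ex vivo, was measured on 6 Agilent arrays in 1 colour. TAG, a glue for vessels, closed the puncture in 3 arteries, and Exoseal, a closure device on the market, closed it in 3 others. Strain, age, time after closure and whether arteries of a group came from different pigs are not given in the sources used here, and all 6 punctures are labelled as on the left. There was no unpunctured or untreated artery among the 6, and p-values measure only the spread between these samples, which may be technical. The smooth muscle markers ACTA2, CNN1, DES and MYLK were well above background on all 6 arrays.

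One artery carries contradictory labels: Exoseal replicate 1 is Exoseal by its title and TAG by its treatment characteristic. It is grouped by title. By the scan times and array positions in the file headers, it was scanned together with the 3 TAG arrays (slide 1), and Exoseal replicates 2 and 3 were scanned together (slide 2). Differences of the 5 genes and of the other lysosomal genes that passed the test are therefore also given within slide 1, where Exoseal replicate 1 is the only Exoseal array, and without that array. The TAG arrays were dimmer: the share of probes called well above background was 34.7% to 41.2% for TAG, against 60.6% to 70.8% for Exoseal. The 75th percentile of the processed signal was 19.3 to 36.4 on TAG arrays and 61.0 to 151 on Exoseal arrays. The lowest signal that the scanner software called well above background was 9.19 to 12.8 on slide 1, and 4.44 and 4.80 on slide 2.

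Levels are given on the log2 scale relative to the 75th percentile of the same array, so a probe at that percentile has a level of 0. Differences are TAG minus Exoseal. A level of one probe cannot be set against that of another. The 5 genes were picked in view of their TAG and Exoseal values in these arrays, so their differences are a description and no test of them is given. Standard errors are those of limma, a linear model fitted across all 22720 probes that were well above background on at least 3 of the 6 arrays. Of the 10 probes, 9 passed that filter. Among all tested probes 10.8% passed an adjusted p of 0.05 in limma (7.06% higher and 3.69% lower in TAG). The 10 probes hold 5 of these calls, 4 lower and 1 higher in TAG, a share that their choice fixes. Among the lower ones, NEU1 A_72_P185321 and GALNS A_72_P677851 were well above background on 0 TAG and 3 Exoseal arrays. They met the filter through the Exoseal arrays alone, and their calls rest on TAG signals not above background. With slide as a block 1 of the 5 calls remained, that of NPC2 A_72_P232427, and all 4 lower ones were lost. The NPC2 call was itself lost with median scaling, with no scaling and with Exoseal replicate 1 counted as TAG. The median difference of all tested probes was 0.08 at this scaling, -0.05 with quantile normalisation, -0.39 with median scaling and -1.63 with no scaling between arrays. The calls numbered 1604 higher and 839 lower, against 1629 and 1523 with quantile normalisation, 492 and 557 with median scaling, and 239 and 10704 with no scaling.

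**Figure D1:**
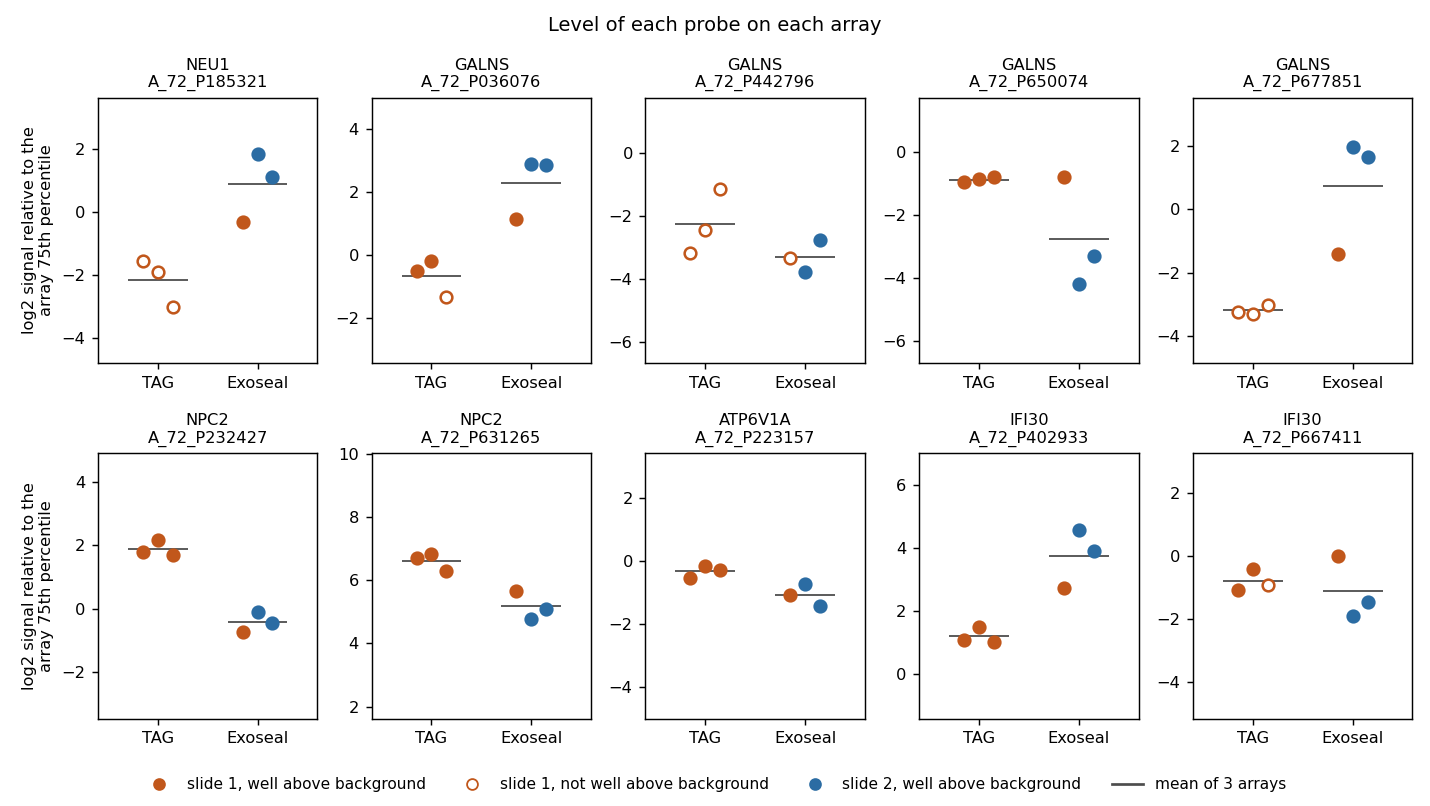
Level of each of the 10 probes on each array (y axis, log2 signal relative to the array's 75th percentile; every panel spans the same number of log2 units). TAG arrays stand left and Exoseal arrays right, colour gives the slide, open circles are probes not well above background and lines are means of 3 arrays; for NEU1, 2 GALNS probes and 1 IFI30 probe all TAG arrays lie below all Exoseal arrays, with Exoseal replicate 1 the lowest Exoseal array.

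NEU1 was detected in Exoseal arteries and not in TAG arteries. Its probe A_72_P185321 had a processed signal of 12.5, 6.85 and 2.38 on TAG replicates 1, 2 and 3, none of them well above background. On Exoseal replicates 1, 2 and 3 it had 55.3, 541 and 130, all well above background. The groups did not overlap, and the signal of Exoseal replicate 1 was the lowest of its group. Because no TAG array measured the probe, the difference is a bound: at the scaling used NEU1 was at least 4.48-fold lower in TAG than in Exoseal arteries. That bound sets the Exoseal mean against, on each TAG array, the higher of the lowest detected signal and the probe's own. The measured mean levels were -2.16 ± 0.77 in TAG and 0.88 ± 1.09 in Exoseal arteries (SD, n = 3 each). The bound was at least 1.97-fold lower in TAG within slide 1, and at least 6.76-fold lower without Exoseal replicate 1.

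GALNS was read by 4 probes, of which 2 had lower levels in TAG at the scaling used. A_72_P036076, the brightest by mean signal, had processed signals of 25.5, 22.5 and 7.62 on the TAG arrays (the last not well above background), against 149, 1107 and 439 on the Exoseal arrays. A_72_P677851 had 3.86, 2.57 and 2.34 on the TAG arrays, none well above background, and 25.7, 597 and 192 on the Exoseal arrays. On both probes all TAG arrays lay below all Exoseal arrays, and Exoseal replicate 1 was the dimmest Exoseal array. A_72_P036076 had mean levels of -0.68 ± 0.59 in TAG and 2.28 ± 1.00 in Exoseal arteries (SD, n = 3 each), a difference of -2.96 ± 0.59. It was -1.81 within slide 1 and -3.54 without Exoseal replicate 1. For A_72_P677851 the means were -3.20 ± 0.14 in TAG and 0.74 ± 1.87 in Exoseal arteries (SD, n = 3 each). The bound was at least 4.28-fold lower in TAG over all arrays and at least 9.02-fold lower without Exoseal replicate 1. Within slide 1 there was no bound above 1, so no fold is given there.

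At the scaling used, the other GALNS probes did not show the gene lower in TAG. A_72_P650074 had processed signals of 18.6, 14.1 and 11.0 on the TAG arrays, against 39.0, 8.28 and 6.16 on the Exoseal arrays, and was called well above background on all 6. Its level on Exoseal replicate 1 was close to those on the TAG arrays: it was -0.97, -0.87 and -0.81 on the TAG arrays and -0.81 on Exoseal replicate 1, and -4.19 and -3.31 on the other Exoseal arrays. The difference was 1.89 ± 0.77 over all arrays, -0.07 within slide 1 and 2.87 without Exoseal replicate 1, and the groups overlapped. The signals of 8.28 and 6.16 that counted as detected on slide 2 lie below the lowest detected signal of every array on slide 1. A_72_P442796 was near background everywhere, with 4.03, 4.70 and 8.63 on the TAG arrays and 6.77, 11.0 and 8.89 on the Exoseal arrays. It was well above background on Exoseal replicates 2 and 3 alone, did not pass the filter, and gives no fold.

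**Figure D2:**
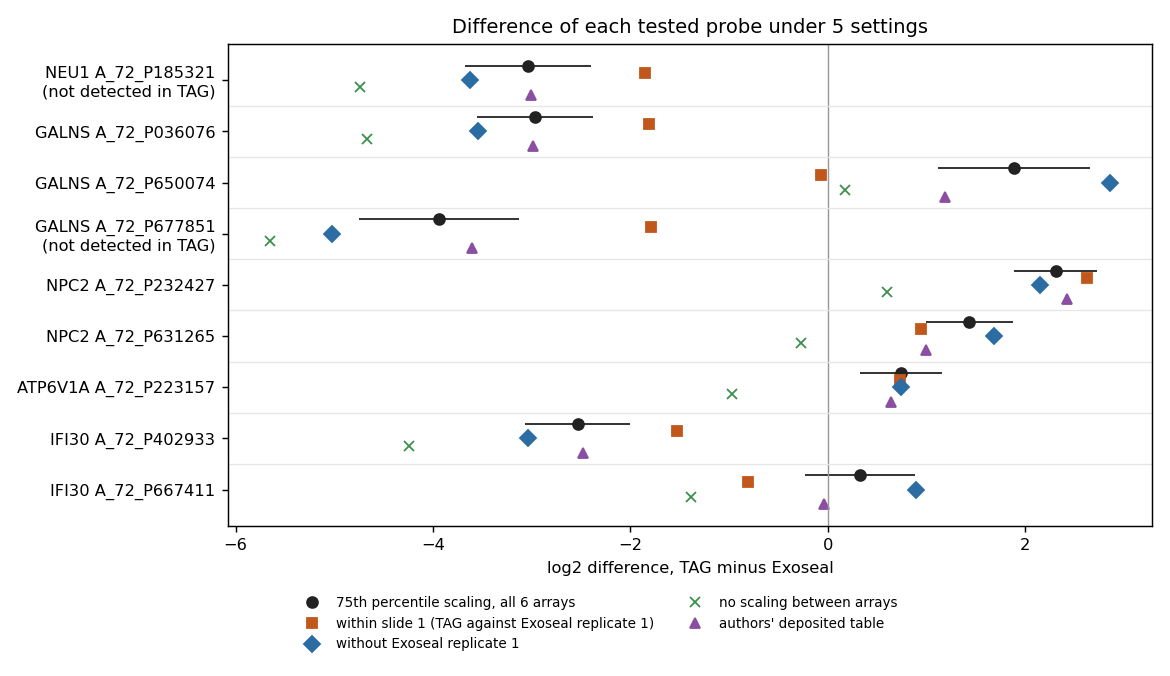
Log2 difference, TAG minus Exoseal, of the 9 probes that passed the filter (x axis), with all 6 arrays (circle, bar: standard error), within slide 1, without Exoseal replicate 1, with no scaling between arrays and in the authors' deposited table. GALNS A_72_P036076 and IFI30 A_72_P402933 lie below 0 in each, GALNS A_72_P650074 is at -0.07 within slide 1, and NPC2 A_72_P631265 and ATP6V1A turn negative with no scaling; the points of NEU1 and GALNS A_72_P677851 rest on TAG signals not above background and are no measured differences.

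NPC2 had a higher level in TAG arteries relative to the rest of each array, but before scaling the groups overlapped on both of its probes. On its probe A_72_P631265 the mean was then not higher in TAG. The processed signals of that probe were 3783, 2963 and 1510 on the TAG arrays, against 3481, 4164 and 2056 on the Exoseal arrays, so the unscaled signals of the groups overlapped. After scaling, its levels were 6.70, 6.85 and 6.29 on the TAG arrays and 5.67, 4.79 and 5.07 on the Exoseal arrays, with no overlap. The difference was 1.44 ± 0.44 over all arrays, 0.94 within slide 1, 1.68 without Exoseal replicate 1, and -0.27 with no scaling between arrays. The second probe, A_72_P232427, had signals of 125, 116 and 62.1 on the TAG arrays, against 40.8, 140 and 44.8 on the Exoseal arrays. Its mean levels were 1.88 ± 0.26 in TAG and -0.43 ± 0.32 in Exoseal arteries (SD, n = 3 each), a difference of 2.31 ± 0.42. It stayed above 0 within slide 1 (2.63), without Exoseal replicate 1 (2.15) and with no scaling (0.60). The 2 probes of NPC2 thus pointed the same way at the scaling used.

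NPC1, the membrane protein that takes cholesterol from NPC2, did not pass the test. Its level was -0.01 ± 0.14 in TAG and -0.73 ± 1.13 in Exoseal arteries (SD, n = 3 each). The difference was 0.72 ± 0.58 (limma, adjusted p = 0.434), with 1.51 within slide 1 and 0.33 without Exoseal replicate 1.

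The level of ATP6V1A was higher in TAG arteries at the scaling used and, on average, lower before scaling. Its single probe, A_72_P223157, was well above background on all 6 arrays, with processed signals of 25.3, 22.9 and 15.9 on the TAG arrays, against 32.8, 90.8 and 23.0 on the Exoseal arrays. Relative to each array's 75th percentile the level was -0.32 ± 0.18 in TAG and -1.07 ± 0.34 in Exoseal arteries (SD, n = 3 each). All 3 TAG levels were above all 3 Exoseal levels, by 0.74 ± 0.42 on average. The difference was 0.73 within slide 1, 0.75 without Exoseal replicate 1, 0.28 with median scaling and -0.97 with no scaling between arrays.

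The other measured subunits of the proton pump did not pass the test in either direction (0 of 4 past an adjusted p of 0.05 in limma). ATP6V1H, the regulatory H subunit of the cytosolic sector, had a difference of -1.01 ± 0.52 (adjusted p = 0.226), and ATP6V0E1, of the membrane sector, had -0.78 ± 0.41 (adjusted p = 0.234). Within slide 1 they had -0.81 and -0.77. ATP6V1G1, a stalk subunit, had 0.34 ± 0.48 over all arrays. ATP6V1G2 had 0.13 ± 0.63, and -1.18 within slide 1. The sign of the catalytic subunit thus did not extend to ATP6V1H and ATP6V0E1, whose 3 TAG arrays all lay below the 3 Exoseal arrays. The differences between subunits were not tested.

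IFI30 also gave probes that disagreed. A_72_P402933 had processed signals of 77.2, 71.9 and 39.4 on the TAG arrays, against 454, 3554 and 916 on the Exoseal arrays, all well above background. The groups did not overlap with or without scaling, and Exoseal replicate 1 was again the lowest of its group. Mean levels were 1.20 ± 0.25 in TAG and 3.73 ± 0.93 in Exoseal arteries (SD, n = 3 each), a difference of -2.53 ± 0.53. It was -1.53 within slide 1 and -3.03 without Exoseal replicate 1. The second probe, A_72_P667411, had 17.3, 19.5 and 10.1 on the TAG arrays (the last not well above background), against 68.5, 40.0 and 22.0 on the Exoseal arrays. Its unscaled signals were thus lower on every TAG array than on every Exoseal array, while its levels overlapped. Its difference was 0.33 ± 0.56 at the scaling used, -0.80 within slide 1, 0.89 without Exoseal replicate 1 and -1.38 with no scaling.

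**Figure D3:**
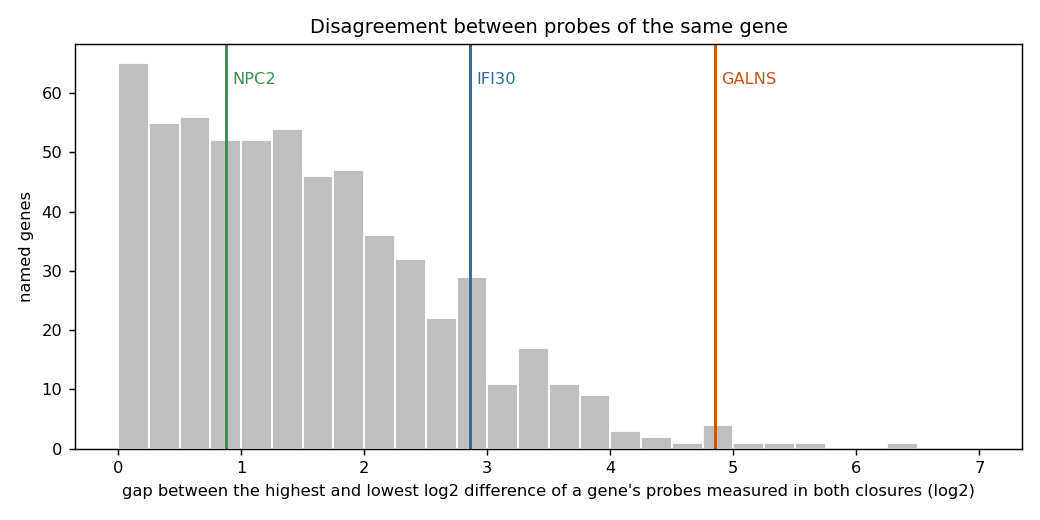
Number of named genes (y axis) by the gap between the highest and the lowest log2 difference, TAG minus Exoseal, among the tested probes of the gene that were well above background on at least 1 array of each closure (x axis, log2 units), for 608 genes with at least 2 such probes. Vertical lines mark NPC2 at 0.88, IFI30 at 2.86 and GALNS at 4.85.

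Opposite signs among probes of one gene were common on these arrays. Of 732 named genes with at least 2 tested probes, 385 (52.6%) had probes of opposite sign. Over probes well above background on at least 1 array of each closure, 306 of 608 genes (50.3%) did, with a median gap of 1.37 between the highest and lowest difference. GALNS had a gap of 4.85 between its 2 such probes, A_72_P036076 and A_72_P650074, and 4 of the 608 genes had a larger one. IFI30 had a gap of 2.86, which 13.7% of these genes exceeded, and NPC2 a gap of 0.88, which 66.9% exceeded. Each of these members had 2 such probes, while the 608 genes include some with more, such as ITM2B with 31. A gap cannot shrink, nor opposite signs vanish, as probes are added, so these shares do not compare genes with equal numbers of probes. Across the 6 arrays the GALNS probes A_72_P036076 and A_72_P677851 moved together (Pearson's r = 0.96, with the second on no TAG array above background), and A_72_P036076 and A_72_P650074 in opposite directions (r = -0.88). Pearson's r was 0.87 between the NPC2 probes and -0.55 between the IFI30 probes. These values describe 6 arrays that share 2 closures and 2 slides. Within slide 1, where Exoseal replicate 1 is the only Exoseal array, GALNS A_72_P036076 had -1.81 and A_72_P650074 -0.07. There IFI30 A_72_P402933 had -1.53 and A_72_P667411 -0.80.

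At the scaling used, the Exoseal arrays stood in the same order on NEU1, GALNS A_72_P036076 and A_72_P677851, and IFI30 A_72_P402933. On each of these 4 probes Exoseal replicate 2 had the highest level, replicate 3 the next and replicate 1 the lowest of the group. Among all tested probes 18.2% had that order. For GALNS A_72_P036076 Exoseal replicates 2 and 3 were close (2.88 and 2.85). There replicate 3 stood above replicate 2 with quantile normalisation (8.28 against 8.24) and in the authors' deposited table (8.27 against 8.24). Exoseal replicate 1 stood 1.77 below the mean of the other Exoseal arrays for NEU1, 1.74 and 3.23 below for the GALNS probes A_72_P036076 and A_72_P677851, and 1.50 below for IFI30. For ATP6V1A it was 0.01 above that mean. Over all 10 probes the groups did not overlap for 7, with 4 lower and 3 higher in TAG. Among all tested probes 36.4% did not overlap, with 16.2% lower and 20.2% higher in TAG.

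Several markers of cell types, each read by its brightest probe, differed between the closures too. Of 9 macrophage and monocyte markers tested, 5 were lower and 4 higher in TAG, with a median difference of -0.19, and in limma 3 fell (LYZ, AIF1 and CD86) and none rose. The median of these 9 was -1.29 within slide 1. CD163, CD14, C1QA and CD74 had 0.10, 0.23, 0.68 and 0.78, and within slide 1 they had 1.23, -1.54, 0.31 and 0.38. Further probes had -3.52 and -0.91 for LYZ and -1.39 for AIF1, and only the first of these passed (limma, adjusted p = 0.0274). Those of CD163 (1.04 and 0.77), CD74 (1.28) and TYROBP (-0.78) did not pass. The summed signal of the 10 markers on the array, in multiples of the array's 75th percentile, was 17.0 to 25.0 on TAG arrays and 47.3 to 86.5 on Exoseal arrays (56.7 on Exoseal replicate 1). Such sums add probes whose levels cannot be set against each other, so they follow the brightest probes and are no measure of cell number. On Exoseal arrays these were LYZ and AIF1 here, MMP9 for the neutrophil and CDH5 for the endothelial markers below. TYROBP was well above background on no TAG array, and FCGR1A on none of the 6.

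The neutrophil markers summed to 3.50 to 4.83 on TAG arrays and 10.0 to 28.8 on Exoseal arrays. Of 4 tested, ARG1 (above background on no TAG array) and MMP9 fell in TAG, and S100A8 and S100A12 had 0.38 and 1.72. A second probe had -1.60 for ARG1 (limma, adjusted p = 0.049) and -0.23 for MMP9, which did not pass (limma, adjusted p = 0.833). The endothelial markers summed to 5.47 to 9.59 on TAG arrays and 14.2 to 53.5 on Exoseal arrays. By their brightest probes all 3 were lower in TAG. CDH5, a cadherin of endothelial junctions, fell by 2.47 (limma, adjusted p = 0.0322) but did not pass with slide as a block (adjusted p = 0.127). PECAM1 and NOS3 had -1.57 and -0.52 and did not pass. A second probe of each was higher in TAG and passed in limma, with 2.40 for PECAM1 (adjusted p = 0.0376) and 3.01 for NOS3 (adjusted p = 0.044).

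The smooth muscle markers summed to 448 to 527 on TAG arrays and 247 to 274 on Exoseal arrays. ACTA2 and DES rose in TAG in limma but did not pass with slide as a block (adjusted p = 0.0514 and 0.0971), CNN1 had 0.73 and MYLK had -1.37. A second probe of CNN1 had 2.49 and passed in limma (adjusted p = 0.0318). The fibroblast markers DCN and THY1 summed to 216 to 240 on TAG arrays and 99.9 to 142 on Exoseal arrays, nearly all of it DCN. Neither passed by its brightest probe, and THY1 was well above background on no TAG array. DCN had 0.91 by that probe and 0.49, 1.91 and 1.86 by its other tested probes. The last 2 of these passed in limma (adjusted p = 0.0362 and 0.0346). The part of these cells in the results was not tested, and in whole arteries fewer cells of a type and less RNA per cell cannot be told apart.

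Of 163 other gene symbols of the pathway, 37 had a named probe and 32 were tested, each by its brightest probe. CLN3 and AP3B1 rose and ACP5 fell in TAG at an adjusted p of 0.05 in limma, which makes 3 of 32 genes, a share near the 10.8% of all tested probes. With median scaling 0 rose and 2 fell, and with no scaling between arrays 0 rose and 10 fell. The differences were above 0 for 22 and below 0 for 10, with a median of 0.32 beside 0.08 for all tested probes. The median was 0.19 within slide 1, and with median scaling it was -0.14 beside -0.39 for all tested probes.

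**Figure D4:**
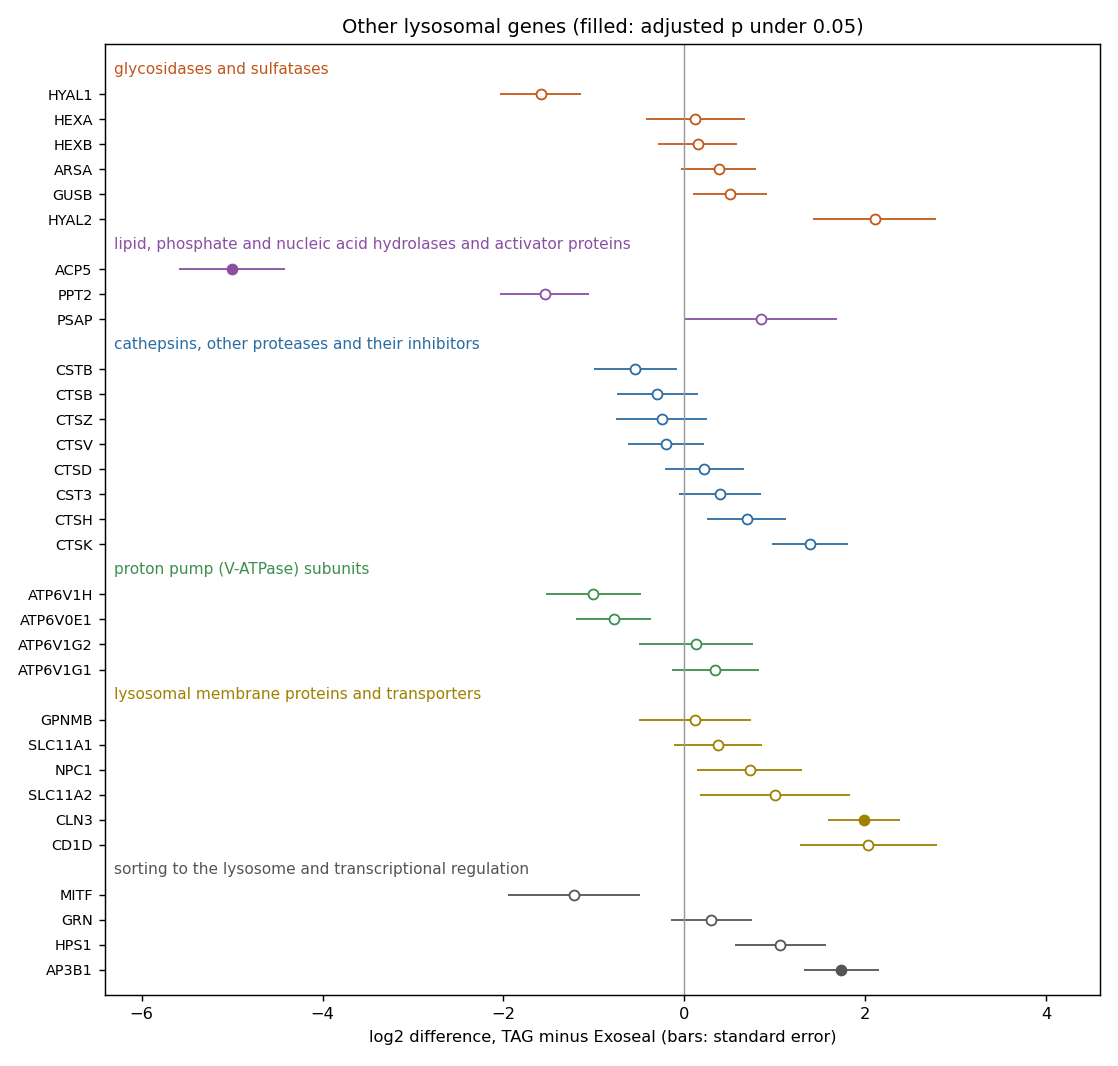
Log2 difference, TAG minus Exoseal, of 31 of the 32 other lysosomal genes tested (x axis, bars: standard error), grouped by role. Filled circles passed an adjusted p of 0.05 in limma: ACP5 lies at -5.00, CLN3 at 1.98 and AP3B1 at 1.74.

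The gene that fell was ACP5, the tartrate-resistant acid phosphatase of osteoclasts and activated macrophages. Its processed signal was 41.3, 62.6 and 39.9 on the TAG arrays, against 7420, 9551 and 1680 on the Exoseal arrays. The difference was -5.00 ± 0.59 (limma, adjusted p = 0.0196), -5.92 within slide 1 and -4.55 without Exoseal replicate 1. The other tested probes of ACP5 had 1.28, 0.74 and -0.72, and as the mean of its probes ACP5 had -0.93 and did not pass.

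CLN3, a lysosomal membrane protein lost in juvenile Batten disease, rose by 1.98 ± 0.40 (limma, adjusted p = 0.0257). Its levels were 0.31, 0.13 and 0.37 on the TAG arrays, against -1.75, -1.83 and -1.55 on the Exoseal arrays, and the difference was 2.02 within slide 1 and 1.96 without Exoseal replicate 1. Its unscaled signals overlapped, with 45.2, 28.2 and 24.9 on the TAG arrays and 20.4, 42.3 and 20.9 on the Exoseal arrays. The other tested probe of CLN3 had 0.84 ± 0.69 and did not pass (limma, adjusted p = 0.445). AP3B1, a subunit of the AP-3 adaptor that sorts membrane proteins to lysosomes, rose by 1.74 ± 0.41 (limma, adjusted p = 0.0354). It did not pass with slide as a block (1.50, adjusted p = 0.101), and had 1.85 without Exoseal replicate 1. With no scaling between arrays CLN3 had 0.27 and AP3B1 had 0.03, and neither passed.

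No glycosidase or sulfatase beside the members passed the test (0 of 7). HYAL1, a hyaluronidase, was well above background on no TAG array and on all 3 Exoseal arrays, and gives no bound above 1 (limma, adjusted p = 0.0522). HYAL2 had 2.11 ± 0.68 (limma, adjusted p = 0.0739), and 0.91 within slide 1.

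None of 8 cathepsins, other proteases and inhibitors passed the test. CTSK, the collagen-degrading cathepsin of osteoclasts and macrophages, had 1.39 ± 0.42 (limma, adjusted p = 0.0632) and 1.39 within slide 1. CTSH, an aminopeptidase, had 0.69 ± 0.44, and CSTB, a cytosolic cathepsin inhibitor, had -0.54 ± 0.46. The group's median was 0.01.

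Among the remaining genes, PPT2, a thioesterase, had -1.55 ± 0.50 (limma, adjusted p = 0.0727) and -1.05 within slide 1. PSAP, the precursor of the saposins that help degrade sphingolipids, had 0.84 ± 0.85, and -0.80 within slide 1. CD1D, which presents lipids from endosomes and lysosomes, had 2.03 ± 0.76 over all arrays (limma, adjusted p = 0.106) and 0.10 within slide 1. HPS1, needed to form lysosome-related organelles, had 1.06 ± 0.50, and MITF, a transcription factor of lysosomal genes, had -1.22 ± 0.73, and 0.22 within slide 1. Of 31 further tested probes of these genes, 3 passed on their own in limma: SLC11A2 A_72_P442096 (4.05) and CTSV A_72_P165036 (1.75) were higher in TAG, and SLC11A1 A_72_P077586 (-3.04) was lower. The brightest probes of these 3 genes, which code for a pair of metal ion transporters and a cathepsin, had 1.00, -0.20 and 0.38 in the same order and did not pass.

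The calls on the pathway changed when single arrays were left out. With any one TAG array removed, 0 of the 32 genes passed in limma, with 9, 7 and 8 at an unadjusted p under 0.05 without replicates 1, 2 and 3. Removing the second or the third Exoseal array also left 0, with 8 at an unadjusted p under 0.05 in each case. Without Exoseal replicate 1 there were 12 genes, 8 higher and 4 lower in TAG. Over all probes the same omissions gave 0 calls for each of the first 5 and 7715 for Exoseal replicate 1.

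Among 1609 other named genes, those whose levels over the 6 arrays ran closest to the brightest probe of each member, by Pearson's r, were SLIRP (0.99), VCL (0.99) and MIOS (0.98) for NEU1, and PFKM, GANAB and ACBD3 (0.99 each) for GALNS. For IFI30 they were CDH5, SMAP2 and ACBD3 (0.99 each), so ACBD3, a Golgi protein, was among the nearest of both. For NPC2 they were GPX4 (0.99), RPS4X (0.98) and ADGRE5 (0.98), and for ATP6V1A ACTR3, ATP9A (0.99 each) and HPS5 (0.98). The levels of NEU1 on TAG arrays are not above background. All these values share the same 6 arrays, their 2 closures and their 2 slides, and are a description.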

How the data were processed

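Cy3-labelled RNA, amplified linearly from total RNA, was hybridised to Agilent arrays in 1 colour, per the labels' protocols. Per the submitters' processing notes, spots were read with Agilent Feature Extraction 11.0.1.1. Per the file headers, the deposited processed signal is an intensity, background-subtracted and detrended within each array and not scaled between arrays, and the deposited flags mark spots well above background. A deposited table by the authors holds log2 values of 43663 probes, whose 6 columns share a median of 3.40. How they were scaled is not stated in any source used. The authors' table was used as an alternative.

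Each array had 45220 spots, of which 1417 controls were left out. Spots of a probe were averaged as log2 without outlier spots, and 223 of 43603 probes with outliers only on some array were dropped; no member had an outlier spot and no spot was saturated. The 75th percentile of each array was subtracted. Probes were named by unversioned RefSeq accession through a gene table of Sscrofa11.1 (5435 of 43380 probes, 2384 symbols). No coordinates are printed because no source names the genome build behind the probes. Probe sequences were not used here. Probes above background on at least 3 of 6 arrays (22720) were tested with limma 3.58.1 in R 4.3.3, two-sided, without covariates, with Benjamini-Hochberg adjustment; each probe was tested on its own so that probes of one gene could be compared. The test was checked on simulated data.

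The members and gene lists were chosen with earlier results of these data known. Named genes are all member probes, other lysosomal genes past the threshold, up to 3 per role with the smallest p, and the 3 genes nearest to each member. The SLC11A1, SLC11A2 and CTSV probes and the further probes of CLN3 and of the cell type markers were named after their values were seen. The values of 1 other lysosomal gene are not reported here. Alternatives were scaling (quantile, median, probes detected on all arrays, none), normexp with an offset of 50 on the median signal, the authors' table, the filter, outlier spots, slide, replicate number, the group of Exoseal replicate 1, probe summaries and leaving out each array. No scaling, and the gaps over probes measured in both closures, were added after the data were examined. The number of arrays limits the precision.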

Additional observations from a re-analysis of the deposited data

How the results depend on the processing

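Over all probes 2443 passed. The count was 1049 with median scaling, 1602 with normexp and quantile normalisation, 3788 with Exoseal replicate 1 counted as TAG and 10943 with no scaling between arrays. It was 0 of 43380 without the filter on dim probes (14128 at an unadjusted p under 0.05 in limma) and ran from 0 to 7715 when single arrays were left out. Of the other lysosomal genes 3 passed (2 higher, 1 lower), against 2 with median scaling (both lower), 5 with quantile normalisation, in the authors' deposited table or with Exoseal replicate 1 counted as TAG, 6 with probes detected on all arrays, 10 with no scaling (all lower), 1 with the mean of probes, 0 without the filter (9 at an unadjusted p under 0.05) and 0 to 12 when single arrays were left out. Counting Exoseal replicate 1 as TAG gave calls on other genes: ACP5 (-3.06), CLN3 (1.46) and AP3B1 (1.48) did not pass there. With the replicate block, 0 of 22720 probes and 0 of 32 lysosomal genes passed in limma (6381 and 9 at an unadjusted p under 0.05). Same-numbered samples did not deviate together (correlations of -0.18, 0.09 and -0.07), so the numbers were not taken as pairs. The causes of these changes were not tested.

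Of the 10 member probes 5 passed, against 1 with slide as a block, 3 with normexp, 4 with median scaling, 0 with the replicate block or without the filter, and 0 to 7 when single arrays were left out (7 without Exoseal replicate 1). The members were picked in view of these same arrays. These counts and the signs below thus only describe how the values move with the processing, and are no test of the members. NEU1 and GALNS A_72_P677851 passed neither with slide as a block nor with normexp. GALNS A_72_P036076 was negative in 20 of 20 other settings (-4.67 to -1.59) and IFI30 A_72_P402933 in 21 of 21 (-4.24 to -1.10). NPC2 A_72_P232427 kept a positive sign in 19 of 19 (0.60 to 2.63), NPC2 A_72_P631265 in 20 of 21 (-0.27 to 1.87) and ATP6V1A in 20 of 21 (-0.97 to 0.91). GALNS A_72_P650074 was positive in 17 of 19 (-0.07 to 2.88) and IFI30 A_72_P667411 in 11 of 18 (-1.38 to 1.09). The low signal over background on TAG arrays limits NEU1 and GALNS A_72_P677851 to bounds.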
